A study of Mus musculus with 2 samples.

Results

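Endothelial cells line blood vessels and answer interferons, cytokines that limit virus growth and alert the immune system. Type I interferons and interferon gamma bind separate receptors whose kinases activate STAT factors, and these switch on antiviral genes through the ISRE sequence and gamma-induced genes through the GAS sequence. In tumours, interferon-responding endothelium is known for secreting the T cell attractants CXCL9 and CXCL10 and for displaying MHC molecules and PD-L1. Described here are the tumour endothelial cells with the highest levels of 8 interferon-induced genes, Ifit1, Ifit2, Ifit3, Rsad2, Isg15, Cxcl9, Cxcl10 and Gbp5. A cell was kept if it had at least 2000 detected genes, and its score was the mean of the deposited natural log values of the 8 genes. The top 10% of kept cells, with both libraries pooled, are called interferon-high: 422 of 4224 kept cells, out of 6194 cells in all.

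The cells came from tumours of adult C57BL/6 mice and were isolated by flow sorting for CD31, which endothelial cells carry on their surface. There were 2 libraries of 10x Genomics 3′ v3.1 chemistry, 1 labelled NF2 KO and 1 labelled Control. Nf2 encodes merlin, a regulator of the Hippo pathway. The tumour type, the number of mice, the Cre or other means of deletion, the exons removed and the full genotype of the Control are not given in the sources used here. Each library's barcodes carry run numbers 1 and 2, whose meaning is not stated; runs are given side by side below as parts of 1 sample, not as replicates. With 1 library per group no test between libraries was possible and no p-value is given, and the intervals cover counting error only.

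The NF2 KO library had 266 interferon-high of 2820 kept cells and the Control library 156 of 1404. UMIs (counted molecules) of the interferon-high cells summed to 6050613 in NF2 KO and 3574104 in Control, and those of the other kept cells to 51227415 and 28197590. Median UMIs per cell in NF2 KO were 19963 in interferon-high and 17617 in other kept cells; in Control they were 18250.5 and 18981. Levels below are CPM, UMIs per 1000000 UMIs of a group of cells. A gene is called higher or lower at a ratio of at least 1.5 in either direction where its mean CPM over the compared groups was at least 20. Nf2 itself had 21.3 CPM in NF2 KO and 23.2 CPM in Control interferon-high cells, a ratio of 0.918 (95% interval 0.691 to 1.22); the 3′ tags may lie outside the deleted exons, and so leave the genotype unchecked. Run pairs shared at most 1 barcode each.

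The score is a range cut at the top 10%, and whether the cells above the cut form a type of their own was not tested. It was 1.25052 in the lowest interferon-high cell and 1.24954 in the highest of the others, with 77 interferon-high and 54 other cells within 0.1 of the cutoff. Its median was 1.63 in interferon-high cells, against 0.296 over all kept cells. The cells were selected on the deposited values of the 8 score genes, and every comparison of interferon-high with other cells is therefore a description. The label was checked with 12 endothelial markers, among them Pecam1, Cdh5 and Egfl7. They summed to 5635 CPM in interferon-high and 5803 CPM in other kept cells of NF2 KO, and to 8078 and 8260.5 CPM in Control, and none of the 12 was called in either library. Between libraries, 4 of the 12 were called lower in interferon-high cells of NF2 KO than in those of Control, against 5.61% of all genes tested. In other kept cells 4 of the 12 were also called lower, against 5.41%, and Cdh5, Cldn5 and Flt1 were called in both classes of cell. The 12 leukocyte markers summed to 79.8 CPM in interferon-high against 107 CPM in other NF2 KO cells. In Control the leukocyte sums were 123 and 118 CPM, with 180.2 CPM in run 1 and 90.5 CPM in run 2 of the interferon-high cells, where S100a8 and S100a9 led. Cells with a UMI of at least 3 leukocyte markers made up 13.2% of interferon-high and 11% of other kept cells in NF2 KO, and 17.3% and 20.8% in Control. Cd3e, a T cell gene, was at 0 UMIs in the interferon-high cells of both libraries, and the 8 mural and fibroblast markers summed to 5.62 and 8.39 CPM there.

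Upstream sequences of 4 score genes are shown because they carry the letters that interferon-activated factors are known to bind. Each line gives the 250 bases before the RefSeq start (GRCm38.p6), 5′ to 3′ on the gene's strand. Capitals mark matches to the ISRE-like letters GAAA, any 2 bases, GAAA (on the other strand TTTC, any 2 bases, TTTC), or to the GAS-like TTCNNNGAA, which reads alike on both strands. Cxcl10 is the score gene with the largest ratio, Ifit1 has 2 separate ISRE-like matches, Isg15 has 3 that overlap, and Gbp5 has both motifs.
Cxcl10 (chr5:92348890-92349139, minus strand): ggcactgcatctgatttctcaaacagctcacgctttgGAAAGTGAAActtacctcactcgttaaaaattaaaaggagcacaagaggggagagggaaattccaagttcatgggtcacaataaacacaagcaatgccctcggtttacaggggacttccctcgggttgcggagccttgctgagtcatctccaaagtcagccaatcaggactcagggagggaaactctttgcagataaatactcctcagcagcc
Ifit1 (chr19:34640639-34640888, plus strand): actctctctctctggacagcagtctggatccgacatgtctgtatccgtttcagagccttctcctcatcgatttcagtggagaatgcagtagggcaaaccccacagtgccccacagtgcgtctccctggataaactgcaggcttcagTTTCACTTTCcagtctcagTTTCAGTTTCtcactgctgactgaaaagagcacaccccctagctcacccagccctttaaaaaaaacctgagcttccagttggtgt
Isg15 (chr4:156200819-156201068, minus strand): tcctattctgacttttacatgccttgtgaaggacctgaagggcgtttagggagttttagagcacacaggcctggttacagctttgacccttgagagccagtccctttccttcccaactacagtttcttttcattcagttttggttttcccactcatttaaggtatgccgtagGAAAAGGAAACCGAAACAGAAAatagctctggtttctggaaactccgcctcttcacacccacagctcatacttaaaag
Gbp5 (chr3:142496684-142496933, plus strand): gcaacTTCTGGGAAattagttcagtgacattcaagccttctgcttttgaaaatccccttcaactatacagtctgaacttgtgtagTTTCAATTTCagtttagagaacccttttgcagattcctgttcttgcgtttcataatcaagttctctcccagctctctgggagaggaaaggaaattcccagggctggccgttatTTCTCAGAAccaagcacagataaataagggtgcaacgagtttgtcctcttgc

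Within 250 bases before and 50 after the start, the ISRE-like letters stood in 6 of the 8 score genes, in 4.46% of 4372 tested genes with a promoter in the table and in 3.99% of all 27025 genes there. The share was 29.4% (50 of 170) among genes at least 1.5-fold higher in interferon-high cells of both libraries. These 170 include the 8 score genes, on which the cells were selected. Among genes at least 1.5-fold lower in both, 0 of 16 had the letters, too few genes to set against a share of 4.46%. GAS-like letters stood in 17.6% (30 of 170) of the genes higher in both, against 7.69% of the tested genes. A match is letters in a window, not a shown binding site.

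The share of interferon-high cells was 9.43% (exact Clopper-Pearson 95% interval 8.38 to 10.6) in NF2 KO and 11.1% (9.51 to 12.9) in Control. Runs of a library lay further apart than the libraries. NF2 KO run 1 had 67 of 1148 kept cells (5.84%) and run 2 had 199 of 1672 (11.9%), while Control run 1 had 69 of 748 (9.22%) and run 2 had 87 of 656 (13.3%). The ranges of the runs overlap, and the ratio of shares, NF2 KO over Control, was 0.849 overall but 1.07 without NF2 KO run 1 and 0.525 without NF2 KO run 2, and 1.02 without Control run 2, so no direction can be read from it. Cells left out for fewer than 2000 genes numbered 548 in NF2 KO and 1422 in Control, and the 8 score genes summed to 1867 and 2587 CPM in them. The other kept cells had 1134 and 1257 CPM, but the interferon-high cells, at 11394 and 10784 CPM, had been taken out of them. Left-out cells were not split by score, so these groups are not alike and no direction can be read.

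**Figure D1:**
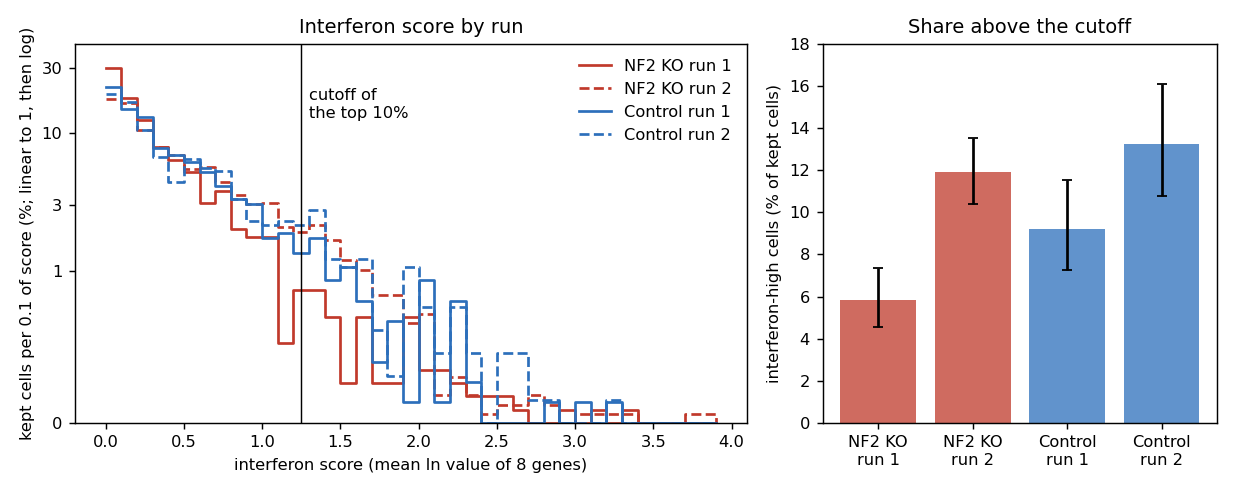
Left, distribution of the interferon score (mean natural log value of 8 genes) over kept cells of each run, in percent of cells per 0.1 of score on an axis that is linear to 1 and logarithmic above; the vertical line is the cutoff of the top 10%. Right, interferon-high cells in percent of kept cells by run, with exact 95% intervals; NF2 KO runs lie at 5.84% and 11.9% and Control runs at 9.22% and 13.3%, so they overlap.

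The score genes differed from the other cells by 5.57 to 38.3 times in NF2 KO and by 6.64 to 32.0 times in Control. Cxcl10, which attracts CXCR3-bearing T cells, had 2884 and 2899 CPM in interferon-high cells of NF2 KO runs 1 and 2, against 60.1 and 84.8 CPM in the other kept cells of those runs. The corresponding Control runs had 2191 and 1784 CPM in interferon-high cells, against 46.7 and 73.4 CPM in the others. This was the largest ratio of the 8 in either library, 38.3 in NF2 KO and 32.0 in Control. Cxcl9, the companion chemokine, had 4638 and 5848 CPM in NF2 KO runs 1 and 2 and 5776 and 5936 CPM in Control runs 1 and 2, among interferon-high cells. Ifit1, whose protein binds viral RNA ends, had 348 and 173 CPM in interferon-high cells of NF2 KO runs 1 and 2, against 16.7 and 19.1 CPM in the other kept cells of those runs. Interferon-high cells of Control runs 1 and 2 had 162 and 154 CPM of Ifit1, against 11 and 14 CPM in the others. NF2 KO run 1 stood above the other 3 runs for Ifit1, and those lay between 154 and 173 CPM. Rsad2 (viperin, which makes a chain-terminating nucleotide) had 990.2 and 537 CPM in interferon-high cells of NF2 KO runs 1 and 2, against 882 and 542 CPM in those of Control runs 1 and 2, so that run 1 exceeded run 2 in both libraries. Isg15, a ubiquitin-like protein, had 1063 CPM in NF2 KO and 1179 CPM in Control, and Gbp5, a guanylate-binding GTPase, 504 and 507 CPM.

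**Figure D2:**
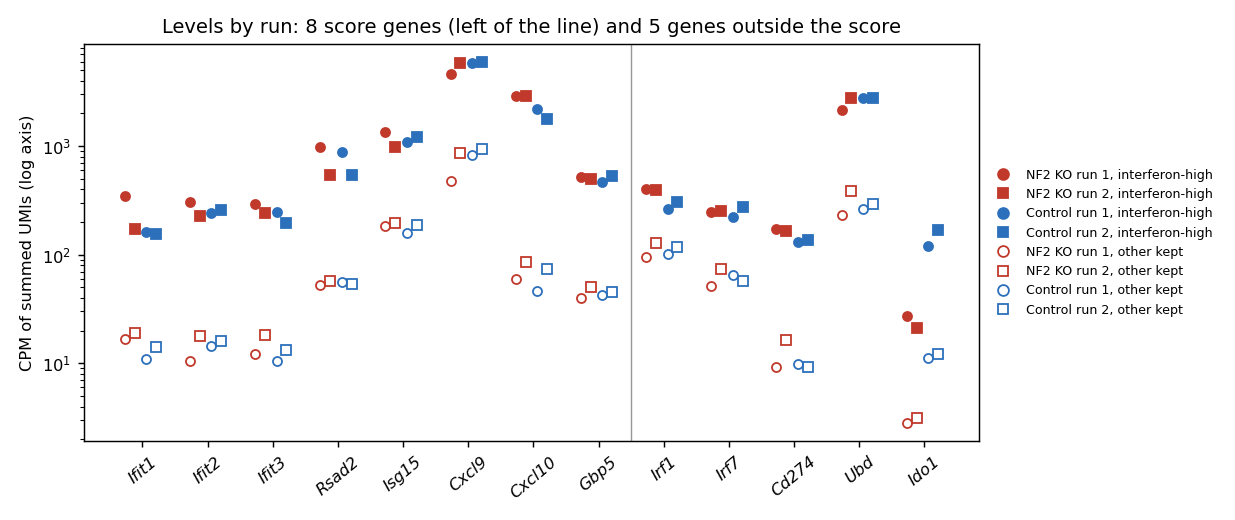
CPM of summed UMIs (log axis) of the 8 score genes and of 5 genes outside the score, by run; filled symbols are interferon-high cells and open symbols other kept cells, NF2 KO in red left of Control in blue. Filled symbols lie above the open ones of their run for every gene shown, and Ido1 alone among the genes plotted shows filled Control symbols far above the filled NF2 KO ones, 120 to 170 against 21.1 to 27.4 CPM.

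Across all genes, 265 of 5726 tested genes (4.63%) were called higher and 72 (1.26%) lower in interferon-high than in other kept cells of NF2 KO. In Control 295 of 5794 (5.09%) were higher and 174 (3.0%) lower. Both libraries shared 222 higher calls of 5505 genes (4.03%) and 22 lower calls (0.400%). The median log2 ratio over all tested genes was -0.08 in NF2 KO and -0.08 in Control. The ratio in NF2 KO and that in Control were at least 1.5-fold apart for 77 of 5442 genes (1.41%).

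None of the 3 interferon ligand genes analysed had a UMI in interferon-high cells. Ifnb1, Ifng and Ifne had 0 UMIs in the interferon-high cells of both libraries, which by the limit of 3 UMIs over a group's total allows up to 0.496 CPM in NF2 KO and 0.839 CPM in Control; 7 other listed ligand genes were not analysed here. In other kept cells Ifng had 4 UMIs (0.0781 CPM) in NF2 KO and 0 in Control, and Ifne had 9 UMIs (0.176 CPM) in NF2 KO and 7 (0.248 CPM) in Control. These levels lie below what 0 UMIs in interferon-high cells allows, so a difference was not detectable at this depth. Of the receptors and kinases, 0 of 7 tested in NF2 KO and 1 of 7 in Control were called higher, the one being the kinase Jak2 at 1.56. Of all genes tested, 4.63% were called higher in NF2 KO and 5.09% in Control. With 7 genes tested, the counts cannot be set against these shares. Ifngr1, a chain of the interferon gamma receptor, had 114 and 168 CPM in interferon-high cells of NF2 KO runs 1 and 2, against 160.3 and 157 CPM in the other kept cells of those runs. The corresponding Control runs had 139 and 150.3 CPM in interferon-high cells, against 127 and 126 CPM in the others. The type I receptor chain Ifnar1 had a ratio of 0.813 (0.728 to 0.906) in NF2 KO and 0.894 (0.788 to 1.01) in Control.

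The list of STAT and IRF factors also holds Batf2, which belongs to neither family. Of its 10 tested members, 6 were called higher in both libraries, against 4.03% of all genes tested. Among the 6 were Stat2, Irf1, Irf7, Irf8 and Batf2. Irf1, a first-wave factor of the gamma response, had 402 and 391 CPM in interferon-high NF2 KO runs 1 and 2, against 263 and 303 CPM in the Control runs. Batf2 had 49.5 and 65.0 CPM in interferon-high cells of NF2 KO runs 1 and 2, against 4.65 and 7.05 CPM in the other kept cells of those runs. Interferon-high cells of Control runs 1 and 2 had 69.3 and 83.9 CPM of Batf2, against 7.60 and 10.6 CPM in the others. The ratio of Batf2 was 9.99 in NF2 KO and 8.59 in Control, the highest of the factors. Irf3, the constitutive factor downstream of nucleic acid sensing, was at 0.971 and 0.858. Of the feedback regulators, 4 of 6 tested were called higher in NF2 KO and 3 of 7 in Control, while the phosphatases Ptpn1 and Ptpn2 were called in neither. The JAK inhibitor Socs1 was 6.97-fold higher in NF2 KO and 7.32-fold in Control, and the ISG15 protease Usp18, which also blocks the type I receptor, 5.71-fold and 5.43-fold. Among nucleic acid sensors, 6 of 7 were called higher in each library, with Dhx58 at 3.91 and 6.08 and Zbp1 at 3.62 and 3.98. The exception was Tmem173 (STING), at 1.48 and 1.36. Higher calls made up 4.63% of all genes tested in NF2 KO and 5.09% in Control.

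Outside the 8 score genes, 106 genes of the antiviral and gamma-inducible lists have a row. Of these, 83 of 88 tested were called higher in each library, against 4.63% and 5.09% of all genes, none was called lower, and 81 of 87 tested in both were higher in both. The median log2 ratio was 1.59 in NF2 KO and 1.76 in Control. Together they summed to 28675 CPM in interferon-high and 12595 CPM in other NF2 KO cells, and to 28152 and 11044 CPM in Control. Cd274 (PD-L1, the ligand that restrains T cells through PD-1) had 172 and 166 CPM in interferon-high cells of NF2 KO runs 1 and 2, against 9.31 and 16.6 CPM in the other kept cells of those runs. Interferon-high cells of Control runs 1 and 2 had 131 and 138 CPM of Cd274, against 9.79 and 9.30 CPM in the others. Its ratio was 12.1 (11 to 13.3) in NF2 KO and 14.2 (12.2 to 16.5) in Control. The ubiquitin-like Ubd had 2151 and 2745 CPM in interferon-high NF2 KO runs 1 and 2, against 231 and 386 CPM in other cells, and 2764 and 2753 against 261 and 295 CPM in Control runs 1 and 2. All 31 gamma-inducible genes tested in both libraries were called higher in both, with the GTPases Gbp2 at 5.18 and 6.90 and Igtp at 5.72 and 6.98, and the adhesion molecule Vcam1 at 2.89 and 3.37. Ifit3b, a near copy of Ifit3, and Cmpk2 had ratios of 14.3 and 9.99 in NF2 KO and 16.9 and 8.42 in Control. Reads of near-identical genes (Ifit3 and Ifit3b, Tgtp1 and Tgtp2, Serpina3f and Serpina3g, H2-Q6 and H2-Q7, the Gbp and Ifi200 families) may be split between copies, and each such value is uncertain.

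**Figure D3:**
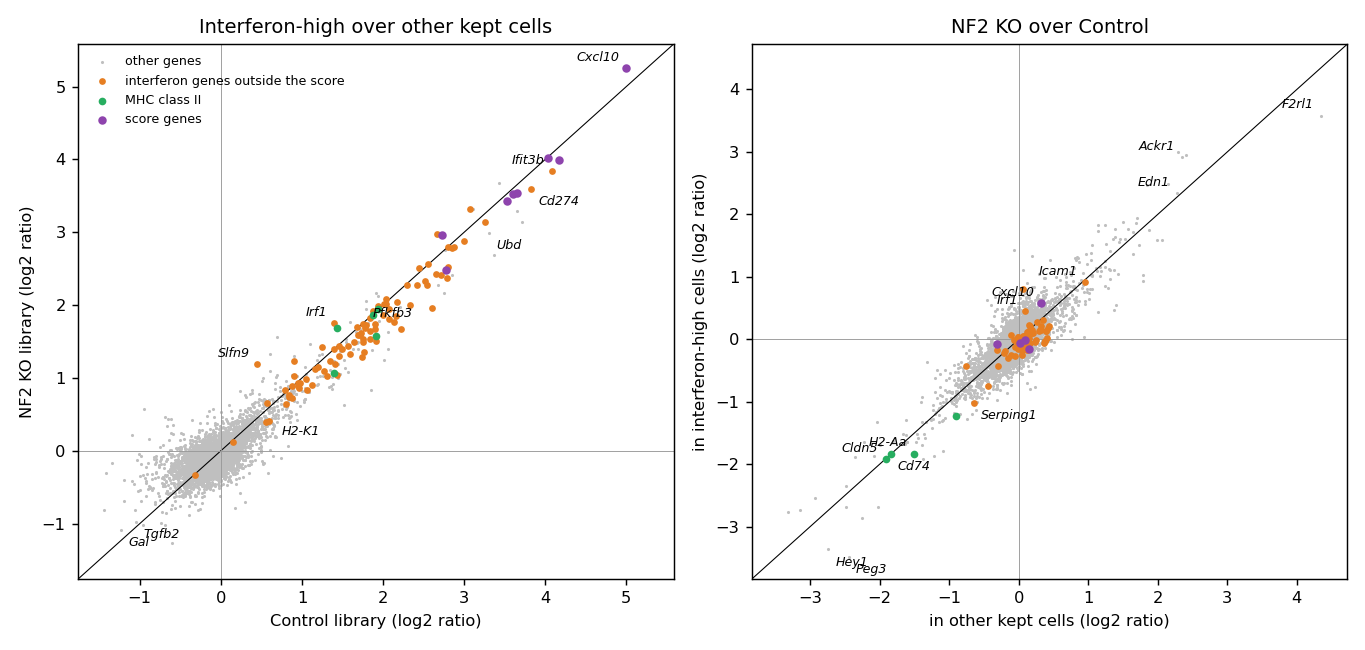
Log2 ratios of CPM for genes tested in both comparisons of a panel, with the line of equality. Left, interferon-high over other kept cells, NF2 KO upward and Control across; interferon genes lie along the line to the upper right, with Cxcl10 at the far end. Right, NF2 KO over Control, in interferon-high cells upward and in other kept cells across; most interferon genes lie near 0, MHC class II genes lie below 0 on both axes, F2rl1 is the highest point on both axes, and Hey1 and Peg3 are among the low points.

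MHC class I genes, whose products show peptides to CD8 T cells, were mostly higher: 14 of 23 tested were called in NF2 KO and 18 of 23 in Control, with median log2 ratios of 0.78 and 0.93. The peptide transporter Tap1 had 374 and 357 CPM in interferon-high NF2 KO runs 1 and 2, against 108 and 148 CPM in the others, and the class I transactivator Nlrc5 had ratios of 2.45 and 3.34. The heavy chain H2-K1 and B2m, abundant in other cells as well, had ratios of 1.36 and 1.36 in NF2 KO and 1.58 and 1.48 in Control. MHC class II genes, which show peptides to CD4 T cells, were called higher in 5 of 5 tested in NF2 KO and 6 of 6 in Control. Beside both MHC lists, 4.63% of all genes tested were called higher in NF2 KO and 5.09% in Control. Cd74, the class II invariant chain, had 156 and 369 CPM in interferon-high cells of NF2 KO runs 1 and 2, against 36.7 and 111 CPM in the other kept cells of those runs. Cd74 in Control runs 1 and 2 was at 1232 and 1102 CPM in interferon-high cells, against 305 and 294 CPM in the others. Every run was higher in its interferon-high cells, and the Control runs stood above both NF2 KO runs in each class of cell.

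Kept cells were also split into 10 bins by score, each of 10%, with the interferon-high cells as bin 10. The bins order cells by genes of the same response and are a description. The interferon genes outside the score summed to 7149.8, 11255, 20882 and 28675 CPM in bins 1, 5, 9 and 10 of NF2 KO, and to 6352, 9655, 19522 and 28152 CPM in those of Control. Cd274 was concentrated at the end, with 6.66, 53.1 and 168 CPM in bins 5, 9 and 10 of NF2 KO and 4.0, 36.0 and 135 CPM in Control. Hypoxia and glycolysis genes ran the other way, with 5723, 4731 and 3891 CPM in bins 1, 5 and 10 of NF2 KO and 5812, 4075 and 3515 CPM in Control. Median UMIs per cell were 13562 in bin 1 and 16676 to 20278 in bins 2 to 10 of NF2 KO, and 14770.0 in bin 1 and 15909 to 22498 in bins 2 to 10 of Control, and the part of depth in the order of the bins was not tested.

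**Figure D4:**
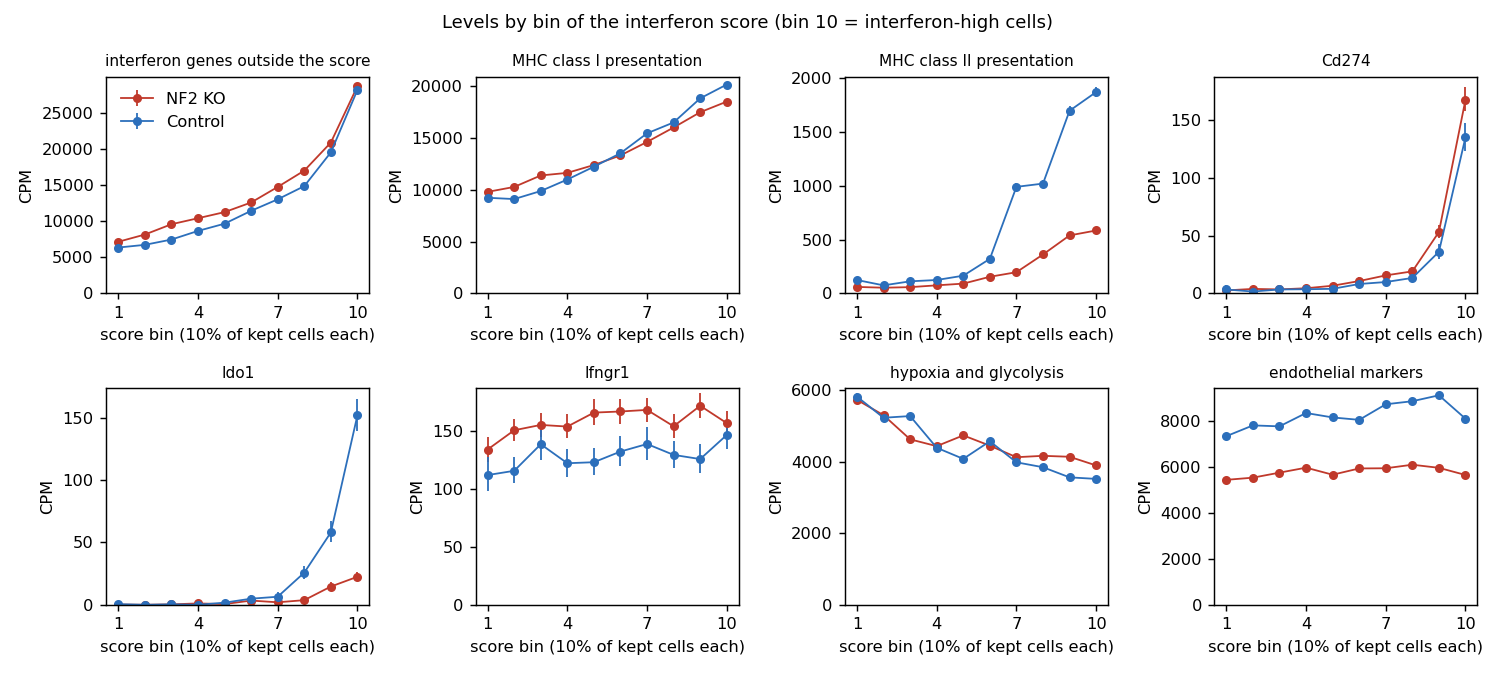
CPM of gene groups and genes in 10 bins of kept cells ordered by score, bin 10 being the interferon-high cells, NF2 KO in red and Control in blue, with exact Poisson 95% intervals. Interferon and MHC genes increase along the score, Ido1 and MHC class II reach higher levels in Control, Ifngr1 and endothelial markers vary little, and hypoxia genes decrease.

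The 8 genes were divided into an antiviral arm (Ifit1, Ifit2, Ifit3, Rsad2, Isg15) and a chemokine arm (Cxcl9, Cxcl10, Gbp5), a division chosen after the values were seen. Taking the top 10% of kept cells for each arm, 171 interferon-high cells (40.5%) were in both, 99 in the antiviral arm only, 149 in the chemokine arm only and 3 in neither. In NF2 KO these were 103, 67, 95 and 1 cells, and in Control 68, 32, 54 and 2. The protease Usp18 had 151 CPM in antiviral-only cells of NF2 KO, 110.0 in cells of both and 21.1 in chemokine-only cells, and Control had 122, 116 and 24.6 CPM. Ubd ran the other way, with 457, 3225 and 3323 CPM in NF2 KO and 383, 3140.3 and 3523 CPM in Control. Gbp2 and Socs1 were also lowest in antiviral-only cells, but were highest in cells of both arms. In the same order, Socs1 had 26.0, 105 and 43.5 CPM in NF2 KO and 15.7, 78.1 and 56.4 CPM in Control. Cmpk2 was lowest in chemokine-only cells, with 192, 219 and 28.1 CPM in NF2 KO and 190, 202 and 40.5 CPM in Control.

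**Figure D5:**
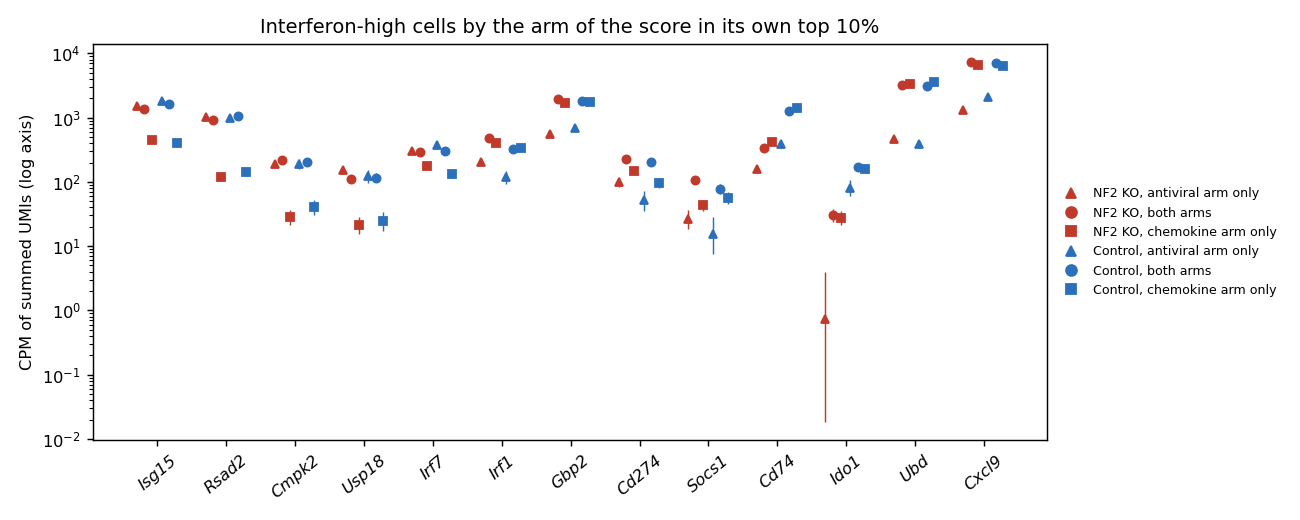
CPM (log axis) with exact Poisson 95% intervals in interferon-high cells that were in the top 10% of the antiviral arm only (triangles), of both arms (circles) or of the chemokine arm only (squares), NF2 KO in red left of Control in blue. Isg15, Rsad2, Cmpk2 and Usp18 are lowest in the squares, and Ubd, Socs1 and Cxcl9 are lowest in the triangles; Isg15, Rsad2 and Cxcl9 define the arms, so their order is set by the selection.

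Between libraries, interferon-high cells of NF2 KO had 199 of 5685 genes called higher (3.50%) and 319 called lower (5.61%) than those of Control. In other kept cells 171 of 5845 (2.93%) were higher and 316 (5.41%) lower. Interferon genes outside the score were close to level: 3 of 91 tested were higher and 7 lower, and their median log2 ratio was -0.01, beside -0.02 over all genes tested. Ido1, the enzyme that degrades tryptophan, had 27.4 and 21.1 CPM in interferon-high cells of NF2 KO runs 1 and 2, against 120.2 and 170.1 CPM in those of Control runs 1 and 2. The ratio was 0.148 (0.122 to 0.179) in interferon-high and 0.260 (0.213 to 0.316) in other kept cells, the lowest of the interferon genes called. In both libraries Ido1 was higher in interferon-high than in other cells, 7.43-fold in NF2 KO, where its mean CPM was under 20, and 13.1-fold in Control. Also lower were Phf11b (0.509), Ifi211 (0.544), Ifi203 (0.597), the complement inhibitor Serping1 (0.496), the class II transactivator Ciita (0.426) and Isg20 (0.610), whose runs overlapped. Higher were Icam1 (1.89), Slfn9 (1.75) and Ifi27l2a (4.01).

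All 7 MHC class II genes tested were lower in NF2 KO interferon-high cells, against 5.61% of all genes tested, with a median log2 ratio of -1.68. Cd74 had a ratio of 0.281 (0.266 to 0.297) in interferon-high and 0.279 (0.269 to 0.289) in other kept cells, so the offset was of the same size in both. H2-Aa, a class II chain, had 16.8 and 51.5 CPM in interferon-high cells of NF2 KO runs 1 and 2, against 181 and 142 CPM in those of Control runs 1 and 2. Leukocytes also express these genes, and the leukocyte marker sums in interferon-high cells were 79.8 CPM in NF2 KO and 123 CPM in Control, with Ptprc at 1.32 and 2.52 CPM and C1qa at 1.16 and 4.48 CPM. Without cells in which at least 3 leukocyte markers had a UMI, the log2 ratio of Cd74 was -1.24 in place of -1.83, and without NF2 KO run 2 it was -2.88. None of the 8 score genes, which helped choose the cells, was called in either direction between libraries in interferon-high cells. Cxcl10 had the highest ratio of the 8, 1.499 (1.46 to 1.54), which lies just under the threshold, and its ratio in other kept cells was 1.25 (1.18 to 1.33). With other settings the log2 ratio of Cxcl10 in interferon-high cells ran from 0.402 without Control run 2 to 0.807 without those leukocyte-marked cells. It passed the threshold in some settings and not in others. Irf1 was at 1.36 (1.27 to 1.47) and was not called. Its log2 ratio was 0.638, past the threshold, without leukocyte-marked cells, and 0.260 in the top 20% of kept cells.

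Genes of other pathways also differed between libraries. F2rl1 (the protease receptor PAR2) had 49.5 and 37.6 CPM in interferon-high cells of NF2 KO runs 1 and 2, against 1.54 and 4.39 CPM in those of Control runs 1 and 2, and the ratio was 12 (6.72 to 23.5). Edn1, the vasoconstrictor endothelin 1, had 541 and 461 CPM in interferon-high cells of NF2 KO runs 1 and 2, against 132 and 72.9 CPM in those of Control runs 1 and 2. Both had ratios of the same direction in other kept cells, 20.3 and 4.86. The venular chemokine scavenger Ackr1 was at 7.58 and the matrix proteoglycan Bgn at 7.98. Genes lower in NF2 KO included Peg3 (0.0896), the Notch target Hey1 (0.0973), the guidance receptor Unc5b (0.137) and the arterial ephrin Efnb2 (0.155). Of 7 Notch pathway genes, 6 were lower in interferon-high cells of NF2 KO and 5 in other kept cells.  Shares of 5.61% and 5.41% of all genes tested were lower in these classes of cell. Of 12 YAP and TAZ target genes, the output that merlin is known to restrain, 7 were higher, among them Ctgf (1.78), Cyr61 (1.68) and Nuak2 (3.67), and 2 were lower, Igfbp3 (0.407) and Nt5e (0.263). In other kept cells 7 of 13 were higher and 2 lower. Of all genes tested, 3.50% were higher in interferon-high and 2.93% in other kept cells of NF2 KO. The sum over the list went the other way, with 4258 CPM in NF2 KO and 6405 CPM in Control interferon-high cells, and 4701 and 7917 CPM in other kept cells. Igfbp3 alone had 1983 CPM of that sum in NF2 KO and 4866 CPM in Control interferon-high cells.

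Genes lower in interferon-high cells were fewer, and the 10 named by rule were Gal, Chst1, Tgfb2, Hmox1, Mfap3l, Slc16a6, Ankrd37, Pgm2l1, Kdelr3 and Tnk2. Tgfb2, a growth factor, was 1.96-fold lower in NF2 KO and 2.06-fold in Control. Ankrd1, a YAP target, had 41.2 and 11.6 CPM in interferon-high cells of NF2 KO runs 1 and 2, against 103 and 89.2 CPM in the other kept cells of those runs. The corresponding Control runs had 0.770 and 0 CPM in interferon-high cells, against 15.3 and 13.8 CPM in the others. The Control value rests on 1 UMI, with a ratio of 0.0192 (0.000486 to 0.108), and the NF2 KO ratio was 0.191 (0.156 to 0.231). Hypoxia and glycolysis genes had median log2 ratios of -0.38 in NF2 KO (2 of 11 lower) and -0.59 in Control (6 of 11 lower), with the glycolytic activator Pfkfb3 the exception at 4.16 and 3.45. Tip cell genes, which mark sprouting endothelium, had medians of -0.28 (4 of 17 lower) and -0.49 (7 of 18 lower). Among all genes tested, 72 of 5726 were called lower in NF2 KO and 174 of 5794 in Control, and the median log2 ratio was -0.08 in each. Apln had 1184 and 1122 CPM in interferon-high NF2 KO runs 1 and 2 against 1541 and 1646 CPM in the others, and Esm1 had ratios of 0.696 and 0.538. Few interferon-high cells were among the top 10% of kept cells for hypoxia genes: 18 of 422 (4.27%), against 9.99% of kept cells.

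Cell-cycle genes gave different values in the 2 libraries. Of 11 G2 and M phase genes, 0 were called lower in interferon-high cells of NF2 KO and 8 in Control, with median log2 ratios of -0.07 and -0.64. Lower calls among all genes tested numbered 72 of 5726 in NF2 KO and 174 of 5794 in Control. Top2a, a mitotic topoisomerase, had 121 and 112 CPM in interferon-high cells of NF2 KO runs 1 and 2, against 84.4 and 91.5 CPM in the other kept cells of those runs. Interferon-high cells of Control runs 1 and 2 had 77.0 and 77.8 CPM of Top2a, against 106 and 127 CPM in the others. The difference of these ratios was not tested, and with the top 5% of cells Top2a, Mki67 and Ube2c were no longer lower in Control, at log2 ratios of 0.09, 0.03 and 0.39. Of the capillary genes, 2 of 10 tested were called higher and 0 lower in NF2 KO, and 3 of 11 higher and 1 lower in Control. Car4, a carbonic anhydrase, was 2.38-fold and 4.02-fold higher and Rgcc 1.58-fold and 1.57-fold, whereas the lipid carrier Fabp4 was at 0.993 and 1.09, and Btnl9 was the gene called lower in Control, at 0.644, although its log2 ratio was 0.03 after each cell was thinned to 5000 UMIs. NF-kB targets had medians of 0.42 and 0.30, with Csf1, a macrophage growth factor, at 1.87 and 2.27 and Il6 at 1.95 and 1.74. The monocyte attractant Ccl2 was 1.81-fold higher in NF2 KO, but in Control its 1.86-fold rests on run 2, since without that run the log2 ratio was -0.02. Of the cell death genes, 3 of 13 tested were called higher in NF2 KO and 6 of 15 in Control, with median log2 ratios of 0.25 and 0.44. Casp4 was at 2.34 and 2.63 and Daxx at 3.87 and 3.45, and the other members tested included 10 within the threshold in NF2 KO and 9 in Control. Beside the capillary and cell death counts, 4.63% of all genes tested were called higher in NF2 KO and 5.09% in Control.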

How the data were processed

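Per the submitters' processing notes, the build was mm10 and the tools included Seurat 3.1.1 and Cell Ranger 3.0.0; whether counting used strand is not given in the sources used here, so overlapping and antisense genes cannot be told apart. The authors deposited natural log values, 1 table of 19831 genes per library. With UMI counts scaled to 10000 per cell and 1 added before the logarithm, these values could be reversed, and whole UMI counts were recovered for 100% of values within 0.01 UMI. The tables held 3368 NF2 KO and 2826 Control cells with 501 to 7994 genes each.

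Recovered UMIs were summed per library and class of cell and given as CPM, with exact Poisson intervals. Ratios have exact conditional intervals and shares exact Clopper-Pearson intervals, all at 95% and for counting error only. Calls needed a ratio of 1.5 and a mean CPM of 20. The code was run on simulated UMI sums for the comparison of NF2 KO with Control in interferon-high cells. Planted changes were larger than the threshold and the noise was counting error only. The simulation therefore does not check calls near the threshold or the spread between cells and runs. The 5% of cells of each library with the highest doublet score were marked, not removed: 5.64% of interferon-high and 5.99% of other kept cells in NF2 KO, 13.5% and 9.62% in Control. Promoters came from RefSeq (GRCm38.p6), and motifs were read on both strands. Named genes were the score genes and Nf2; the 15 highest and 10 lowest ratios of interferon-high over other kept cells, by the smaller change of the libraries, among genes of mean CPM 20 with 1 direction in all 4 runs; the 10 highest and 10 lowest ratios of NF2 KO over Control with both NF2 KO runs on 1 side of both Control runs; the interferon pathway genes; and of each other list up to 4 members by level and up to 4 called members by change. Other genes named were chosen after their values were seen. The members and gene lists were chosen with earlier results of these data known. Analyses used Python 3.11.15 with numpy 2.4.6, scipy 1.17.1, pandas 2.3.3, scikit-learn 1.9.0 and matplotlib 3.10.9. Alternatives covered the gene minimum per cell, the share of cells called, pooling of the libraries, thinning to 5000 UMIs, each run left out, leukocyte-marked and doublet-marked cells, the weight of cells and a CPM minimum of 50.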

Additional observations from a re-analysis of the deposited data

How the results depend on the processing

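No paired analysis was possible because there is 1 library per group and the run numbers are not stated to pair samples. The share ratio, NF2 KO over Control (0.849), moved when a run was left out, from 0.525 without NF2 KO run 2 and 0.711 without Control run 1 to 1.02 without Control run 2 and 1.07 without NF2 KO run 1. The 199 genes higher in NF2 KO interferon-high cells became 400 after thinning to 5000 UMIs and 94 at a CPM minimum of 50. The 319 genes lower became 550 after thinning, 179 at that minimum and 483 without Control run 2. The median log2 ratio of interferon genes outside the score, NF2 KO over Control (-0.01), was 0.0795 after thinning, 0.0873 as a mean over cells and 0.0888 without NF2 KO run 2. For interferon-high over other cells it ranged from 1.35 to 1.89 in NF2 KO and, more narrowly, from 1.59 to 1.89 in Control. By run it was 1.89 and 1.44 in NF2 KO and 1.71 and 1.76 in Control. Gene counts are listed only where they changed by more than 1.5-fold. The share ratio is listed only where it left the range that the 95% interval of the NF2 KO share allows. Single shifts of the medians are listed only where they exceed the spread of the runs, which was smaller in Control. In Control (1.76) the median was 1.89 in the top 5%, 1.59 in the top 20%, 1.67 after thinning, 1.71 without Control run 2, 1.71 without leukocyte-marked cells, 1.86 without doublet-marked cells, 1.71 as a mean over cells and 1.68 at a CPM minimum of 50.

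Single genes changed sign as follows. The log2 ratio NF2 KO over Control in interferon-high cells was 0.115 for S100a8 and 0.0841 for S100a9 without Control run 1, 0.310 and 0.0179 without leukocyte-marked cells, and 0.0309 for Isg20 without NF2 KO run 2. For interferon-high over other cells, S100a9 was 0.183 in NF2 KO without leukocyte-marked cells. In Control, Ube2c was 0.390, Mki67 0.0261 and Top2a 0.0896 in the top 5%, Btnl9 0.0285 after thinning, and without Control run 2 Ccl2 was -0.0230 and Egln3 0.010. The cause was not tested. Thinning left out 15 NF2 KO and 6 Control cells. With runs left out, as a mean over cells or at a CPM minimum of 50, the cutoff was kept. The other alternatives applied the selection anew. With 1 library per group the spread between animals is unknown.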

Other observations

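Across cells, which share a library and so are not replicates, Pearson's r between the mean values of the antiviral and chemokine arms was -0.34 over 266 interferon-high cells of NF2 KO and -0.20 over 156 of Control, against 0.18 over 2554 and 0.26 over 1248 other kept cells. Interferon-high cells were selected on the mean over both arms, so a cell low in 1 arm could enter only if high in the other. Such a selection lowers r by itself. The values in interferon-high cells therefore cannot be compared with those in other kept cells. Ido1 had 0.722 CPM (1 UMI) in antiviral-only cells of NF2 KO and 27.7 CPM in chemokine-only cells, whereas Control had 81.6 and 159.9 CPM. Among interferon-high cells, 73 (17.3%) were also in the top 10% of kept cells for NF-kB targets, with 57 of 266 (21.4%) in NF2 KO and 16 of 156 (10.3%) in Control. That top 10% held 12.1% of all kept cells of NF2 KO and 5.70% of those of Control, so the base shares of the libraries differ as well.

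The 4 erythroid genes, which all encode haemoglobin chains, had lower sums in interferon-high than in other kept cells of each of the 4 runs. They summed to 1.65 CPM in interferon-high and 23.4 CPM in other kept cells of NF2 KO, and to 5.60 and 47.9 CPM in Control, with 75.2 CPM in the other cells of Control run 1. The sum was 0 CPM in interferon-high cells of NF2 KO run 1. In this comparison 0 of the 4 genes reached the mean CPM of 20 needed for a call. The sums in interferon-high cells thus rest on few UMIs.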
